A study of Bos taurus with 13 samples.

Results

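The genes examined here encode the phagocyte NADPH oxidase and the enzymes that remove its products, in whole blood of dairy cows with high or low milk cortisol. They were chosen by name, as *CYBB*, *CYBA*, *NCF1*, *NCF4*, *RAC2*, *SOD1*, *SOD2*, *CAT* and *GPX1*, and 6 of these 9 names were found among the 16095 gene names of the count data. The 6 were *CYBB*, *CYBA*, *NCF1*, *NCF4*, *RAC2* and *CAT*, and none was lost to the filter on low counts. *SOD1*, *SOD2* and *GPX1* were not analysed here, because no entry carried these names.

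The cows were Italian Red Pied, a breed that the study's methods call Italian Simmental, lactating and clinically healthy, from the herd of 1 commercial farm. They were untreated, and the groups are the high and the low tail of milk cortisol, a marker of stress measured on skim milk. Blood was taken from the tail vein into PAXgene tubes, which fix the RNA at sampling, and sequenced without globin depletion. The high group had 7 cows (replicates 1 to 7) and the low group 6 cows (replicates 8 to 13), 13 in all.

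Neutrophils and monocytes kill microbes with a burst of superoxide made by the NADPH oxidase, which passes electrons from NADPH across the membrane to oxygen. Its membrane core is a heterodimer of the products of *CYBB* and *CYBA*, and it is switched on when cytosolic proteins, among them those encoded by *NCF1* and *NCF4*, join it with the small GTPase RAC2. Superoxide dismutases turn superoxide into hydrogen peroxide, which catalase, glutathione peroxidases and peroxiredoxins remove.

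A library of the high group held 12198355 to 23709740 counts of named genes, and one of the low group 11045599 to 28124575. Most markers of the cells of blood were counted in every cow. These were 6 of the 7 neutrophil markers found, 4 of 5 eosinophil, 6 of 8 erythroid and all those found for the other cell types. The neutrophil receptor gene *CSF3R* was at 2108 to 6101 CPM, the T cell gene *CD3E* at 765 to 1723 CPM and the B cell gene *CD79A* at 469 to 1172 CPM. Whole blood mixes these cells, so fewer cells of a type and less RNA per cell cannot be told apart. High replicate 4 stood apart from the other 12 libraries. It lay at 62.4 on the first principal component of log2 CPM (29.0% of the variance), with the others between -31.3 and 19.1. Its genes with short models were also low relative to those with long models, with a mean log2 difference of -0.26 against -0.16 to 0.17 in the others. Values without this library are given beside the results that it moved most.

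The NADPH oxidase genes were among the most abundant transcripts of the blood. Ranked by mean log2 CPM among the 11033 genes tested, *RAC2* was at rank 78, *CYBA* at 143, *NCF1* at 189, *CYBB* at 326 and *NCF4* at 590, and *CAT* was at rank 1437. Per base of gene model, in TPM over named genes, the order of the mean levels was *CYBA* (1976 TPM), *RAC2* (1338), *NCF1* (885), *NCF4* (366), *CYBB* (249) and *CAT* (102). Each step of this order held in at least 12 of 13 cows. *CYBA* was above *RAC2*, *NCF1* above *NCF4* and *CYBB* above *CAT* in 13 of 13 cows, and the mean ratios of these TPM levels were 1.47, 2.30 and 2.37. *RAC2* exceeded *NCF1* by 1.59-fold in TPM, in 12 of 13 cows, and *NCF4* exceeded *CYBB* by 1.52-fold, in 12 of 13 cows. By an exact two-sided sign-flip test over 8192 flips, p was 2.4e-04 for the 3 steps that held in every cow. That is the smallest value this test can give, and p was 4.9e-04 for *RAC2* over *NCF1* and 0.0017 for *NCF4* over *CYBB*. The order was itself taken from these values, so these p are no independent support for it and add nothing to the counts of cows. They do not measure the spread between cows, as the SD of the log2 ratio was 0.16, 0.44 and 0.31 for the 3 steps with the smallest p. Per base of gene model the 2 partners of the membrane core were far apart, with *CYBB* at 0.0687 to 0.267 of *CYBA*. In CPM, which does not divide by length, their means over the 13 cows were 482 and 886. Whether the gene models match the expressed transcripts was not tested.

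**Figure D1:**
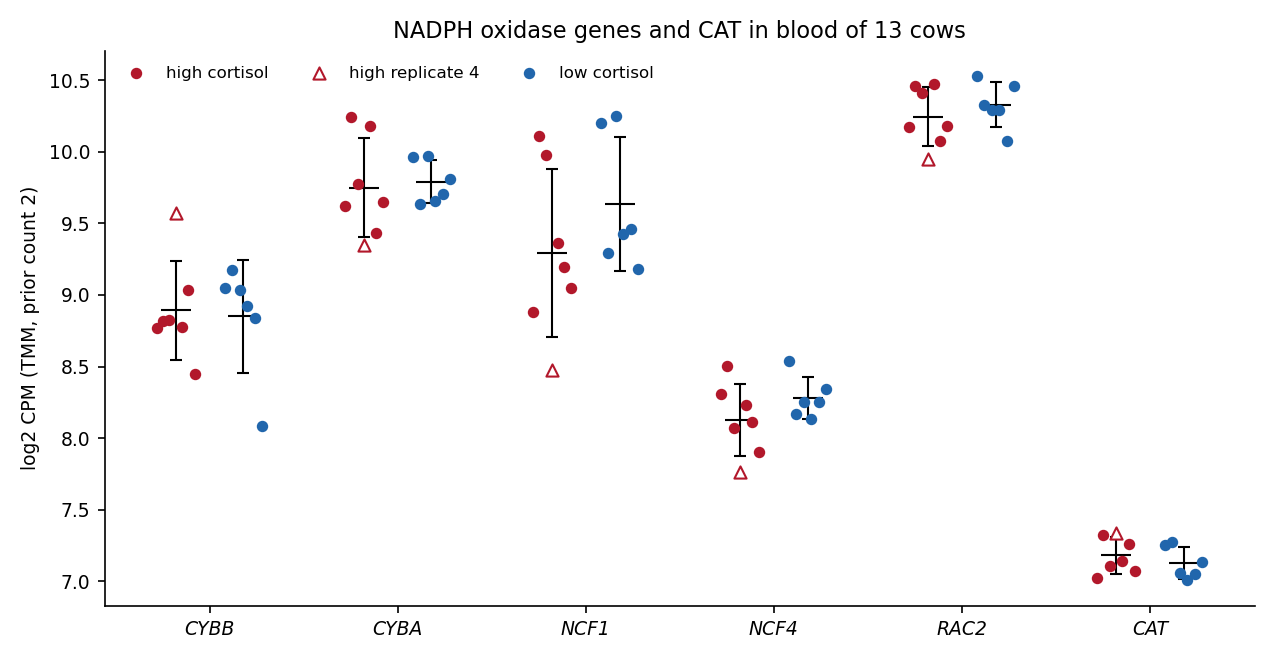
Level of each gene in each cow as log2 CPM (TMM normalized, prior count 2), with 7 cows of the high group in red and 6 of the low group in blue. Bars are the mean and 1 SD, and the open triangle is high replicate 4, which was the highest cow for *CYBB* and the lowest for *CYBA*, *NCF1*, *NCF4* and *RAC2*.

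*CYBB* encodes the catalytic subunit of the oxidase, whose loss causes X-linked chronic granulomatous disease in humans. Its gene model lay on chromosome X, at 111079517 to 111112446 of UMD3.1 on the minus strand, with 13 exon blocks. In the high group *CYBB* was lowest at 349.9 CPM, at 451 in the median cow and highest at 762, and in the low group it was lowest at 271, at 504 in the median cow and highest at 579. The highest value belonged to high replicate 4 and the lowest to low replicate 13, and the remaining cows of both groups overlapped. Means of the high and low groups were 488 ± 131 CPM (SD, n = 7) and 474 ± 108 CPM (SD, n = 6). The log2 fold change was 0.04 ± 0.18 (SE) and its 95% interval ran from -0.34 to 0.42, with an adjusted p of 0.998 in edgeR's quasi-likelihood test. Without high replicate 4 it was -0.10, and without low replicate 13 it was -0.08.

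*CYBA* encodes the smaller subunit of the membrane core, which stabilises the catalytic subunit and anchors the cytosolic proteins. Its short gene model of 715 bases in 6 exon blocks lay on chromosome 18, at 13931107 to 13938075 on the minus strand. In the high group it was lowest at 651 CPM, at 804 in the median cow and highest at 1211, and in the low group lowest at 797, at 867 in the median cow and highest at 1003. The low group lay wholly inside the range of the high group. Means were 883 ± 220.3 CPM (SD, n = 7) and 889.8 ± 92.7 CPM (SD, n = 6), and the log2 fold change was -0.01 ± 0.15 (SE, 95% interval -0.32 to 0.30, edgeR adjusted p = 0.998). This value was positive when high replicate 4 was left out, at 0.05.

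*NCF1* encodes the organiser of the cytosolic complex, which is phosphorylated on activation and then binds the product of *CYBA*. Its model lay on chromosome 25, at 33267458 to 33282335 on the minus strand, with 11 exon blocks. In the high group it was lowest at 356 CPM, at 586 in the median cow and highest at 1105, and in the low group lowest at 582, at 697 in the median cow and highest at 1220.3. High replicates 2 and 3, at 1105 and 1010.3 CPM, and low replicates 8 and 10, at 1177 and 1220.3 CPM, stood above the other 9 cows, none of which exceeded 706 CPM. Means were 673 ± 279.96 CPM (SD, n = 7) and 834 ± 286 CPM (SD, n = 6). *NCF1* had the largest difference of the 6 genes, a log2 fold change of -0.31 ± 0.26 (SE), but its 95% interval from -0.86 to 0.24 spanned 0 (edgeR adjusted p = 0.998). It was -0.47 without high replicate 2, -0.20 without high replicate 4, -0.18 without low replicate 8 and -0.17 without low replicate 10, and the sign was the same without each of the 13 cows. In humans *NCF1* has near-identical pseudogenes. Whether reads of a copy enter the cattle counts was not tested.

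*NCF4* encodes the cytosolic subunit that binds a phosphoinositide of the phagosome membrane. Its model lay on chromosome 5, at 75641217 to 75659769 on the plus strand, with 10 exon blocks. It was lowest at 217 CPM, at 277 in the median cow and highest at 362 in the high group, and lowest at 281, at 305 in the median cow and highest at 373 in the low group. Of the 7 high cows, 5 were below the median of the low group. The mean was 283 ± 48.8 CPM (SD, n = 7) against 313 ± 33.1 CPM (SD, n = 6). The log2 fold change was -0.14 ± 0.12 (SE, 95% interval -0.39 to 0.11, edgeR adjusted p = 0.998). It was -0.08 without low replicate 8, -0.09 without high replicate 4 and -0.21 without high replicate 2, the farthest values when single cows were left out.

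*RAC2* encodes the GTPase of blood cells that completes the active oxidase and also steers the actin skeleton. It lay on the same chromosome as *NCF4*, at 76033363 to 76050218 on the minus strand, with 7 exon blocks. It ranged from 987 through a median of 1159 to 1422 CPM in the high group, and from 1081 through a median of 1270.3 to 1478 CPM in the low group. The ranges overlapped over most of their width. Means were 1224 ± 172 CPM (SD, n = 7) and 1293 ± 138 CPM (SD, n = 6), and the log2 fold change was -0.08 ± 0.11 (SE, 95% interval -0.32 to 0.16, edgeR adjusted p = 0.998). It was -0.03 without high replicate 4 and likewise without low replicate 8, and -0.13 without low replicate 12.

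*CAT* encodes catalase, the peroxisomal enzyme that splits hydrogen peroxide and is also abundant in red cells. Its model lay on chromosome 15, at 65779325 to 65815261 on the plus strand, with 13 exon blocks. It was the steadiest of the 6 genes, with 129.7, 141 and 162 CPM in the lowest, median and highest cow of the high group and 128, 137 and 155 CPM in those of the low group. Means were 145 ± 13.0 CPM (SD, n = 7) and 140.3 ± 11.0 CPM (SD, n = 6). The log2 fold change was 0.05 ± 0.09 (SE) and its 95% interval ran from -0.13 to 0.24 (edgeR adjusted p = 0.998). That interval corresponds to a ratio of high to low between 0.913 and 1.18. With single cows left out the log2 fold change was 0.02, without high replicate 4, to 0.08. Because red cells carry catalase, their markers are given beside it. The erythroid marker score was higher in the high group by 0.63 on the log2 scale (exact permutation p = 0.0146, adjusted over 12 scores 0.105). Of 11 erythroid markers 8 were found, 6 of them counted in every cow and none at 0 in all cows. The score used the 5 that passed the filter on low counts. The summed level of all 8 was 46.8 to 328 CPM in the high group and 30.1 to 75.4 CPM in the low group. Across cows *CAT* had a Pearson r of -0.03 with that score, but r was -0.77 over the 7 high cows and 0.66 over the 6 low cows, and the difference between these was not tested.

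**Figure D2:**
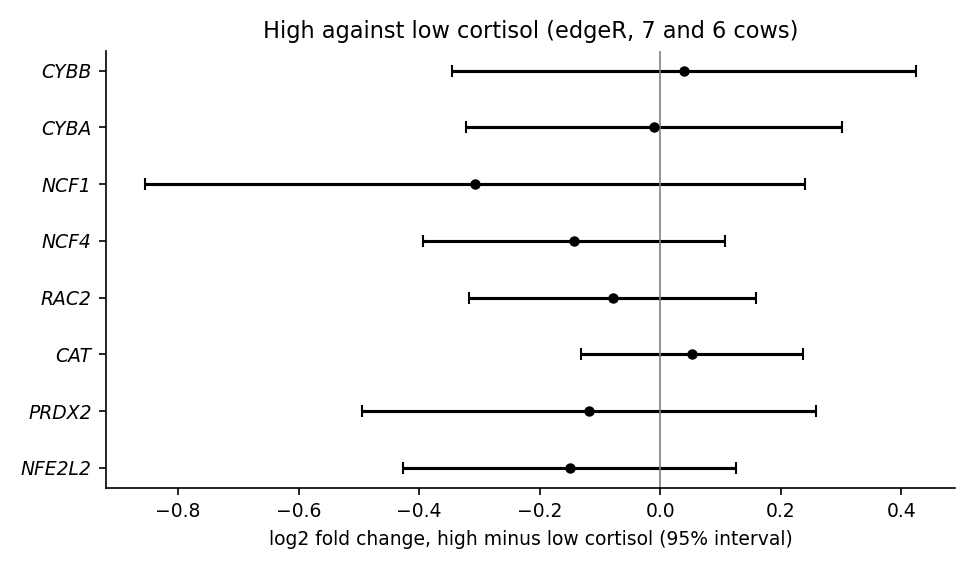
Log2 fold change, high minus low cortisol, of the 6 genes, *PRDX2* and *NFE2L2* in edgeR's quasi-likelihood fit, with the 95% interval as a bar. All 8 intervals include 0, and that of *NCF1* is the widest, from -0.86 to 0.24.

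Thus none of the 6 genes was over- or under-expressed in the high group at an adjusted p below 0.05 (0 of 6), beside 0.0% of all genes tested. At an unadjusted p below 0.05 the count was also 0 of 6, beside 2.09% of all genes (0.934% higher and 1.16% lower in the high group). By the exact two-sided permutation test over the 1716 splits of 7 against 6 cows, unadjusted p ran from 0.209 for *NCF4* to 0.857 for *CYBB*, so again 0 of 6 passed, beside 2.05% of all genes. The groups overlapped for all 6 genes, and 0.0272% of the genes tested had groups that did not overlap. The log2 fold change was below 0 for 4 of 6 genes, beside 46.7% of all genes, and its median was -0.04, beside 0.01 over all genes tested.

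The oxidase partners were tested in the same fit. Of 13 names of partners and regulators, 10 were found and tested, 5 with a positive and 5 with a negative log2 fold change, and 0 passed at an adjusted or an unadjusted p below 0.05. Their median log2 fold change was -0.0032. The widest of these differences was that of *MPO*, the myeloperoxidase of neutrophil granules that uses hydrogen peroxide to make hypochlorous acid. It was low, with a mean of 12.1 CPM in the high group and 7.44 CPM in the low group (log2 fold change 0.68 ± 0.47, SE, edgeR adjusted p = 0.998).

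The other NADPH oxidases were scarce or had no counts, apart from *NOXA1*, a NOX1 activator at means of 19.9 and 19.6 CPM in the high and low groups. All 10 names were found, but only *NOX1*, *NOXA1* and *NOXO1* passed the filter, and 0 of these 3 passed the test. The other 7, *NOX3*, *NOX4*, *NOX5*, *DUOX1*, *DUOX2*, *DUOXA1* and *DUOXA2*, had at most 19 counts in any cow. *NOX4*, the isoform of kidney and vessel wall, had 0 counts in all 13 cows, which allows a level of up to 0.107 to 0.272 CPM per cow, by counting error alone.

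Antioxidant genes beside *CAT* did not pass the test either. In the glutathione system, 17 of 20 names were found and 14 were tested, with 8 positive and 6 negative log2 fold changes and 0 at an unadjusted p below 0.05. *GPX4*, the glutathione peroxidase of membrane lipids, had at most 2 counts in any cow. Its model in these data spanned only 51944664 to 51945231 of chromosome 7, with 4 exon blocks that make up 522 bases and gaps of 1 to 43 bases between them. Whether this model stands for the expressed gene was not tested, and no level of *GPX4* was taken from it. All 13 peroxiredoxin and thioredoxin genes were tested, 6 positive and 7 negative, and 0 passed. *PRDX2*, the abundant peroxiredoxin of red cells, had means of 311 ± 75.7 CPM (SD, n = 7, high group) and 338 ± 83.5 CPM (SD, n = 6, low group; log2 fold change -0.12 ± 0.18, SE, edgeR adjusted p = 0.998).

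All 7 genes of the NRF2 pathway, which drives transcription of antioxidant genes, were tested, with 3 positive and 4 negative log2 fold changes and 0 past the test. *NFE2L2*, which encodes NRF2 itself, was at 134 ± 19.8 CPM (SD, n = 7) against 149 ± 27.0 CPM (SD, n = 6), with a log2 fold change of -0.15 ± 0.13 (SE, edgeR adjusted p = 0.998). The partners of superoxide dismutase and catalase were *CCS*, the copper chaperone of SOD1, with a log2 fold change of 0.00 ± 0.13 (SE), and the extracellular *SOD3*, at 0 to 3.41 CPM. Neither passed the test. In all, 49 genes of the 6 lists were tested, 25 positive and 24 negative, and 0 had an unadjusted p below 0.05. The smallest unadjusted p in edgeR was 0.0756, for *GCLC*, the catalytic subunit of the enzyme that starts glutathione synthesis (16.6 ± 5.85 CPM, SD, n = 7, against 12.9 ± 1.02 CPM, SD, n = 6). It was singled out here after its value was seen.

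**Figure D3:**
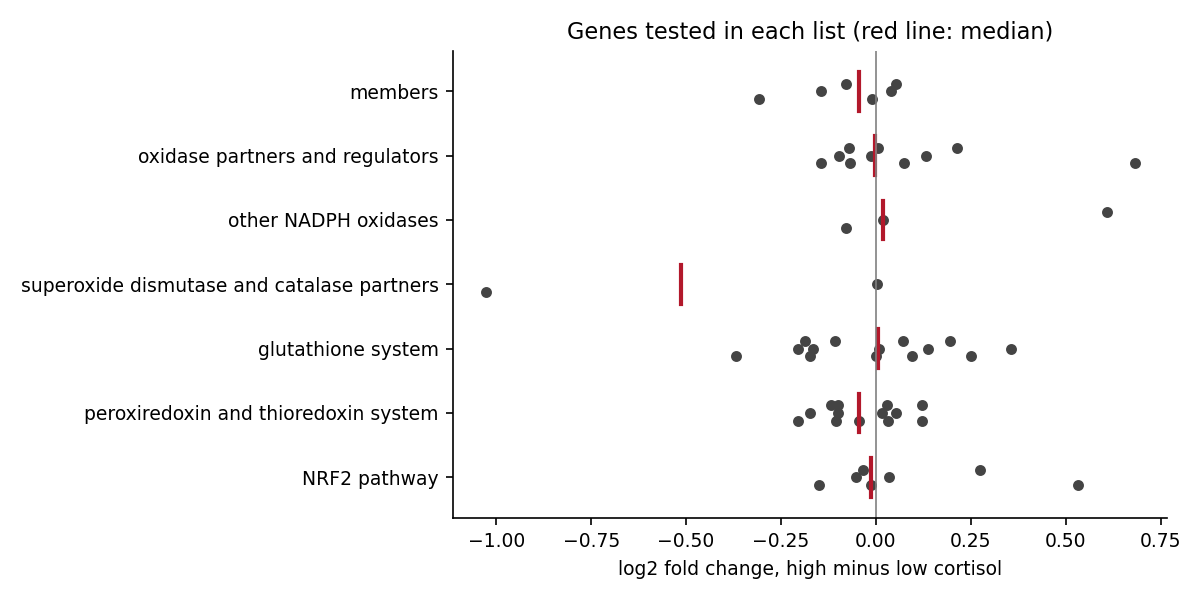
Log2 fold change, high minus low cortisol, of every tested gene of each list, 1 point per gene, with the median of the list as a red line. The medians lie between -0.04 and 0.02 for every list but the 2 partners of superoxide dismutase and catalase, where *SOD3* is at -1.03.

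For each of the 6 genes the SD between cows was larger than the difference between the groups, and it varied from gene to gene. The SD of log2 CPM over the 13 cows was 0.54 for *NCF1*, 0.35 for *CYBB*, 0.26 for *CYBA*, 0.22 for *NCF4*, 0.18 for *RAC2* and 0.12 for *CAT*, beside a median of 0.31 over all genes tested. Among genes within 1 log2 unit of its own level, *NCF1* was more variable than 96.5%, *CYBB* than 85.1% and *CAT* than only 6.39%. *NCF1* spanned 3.43-fold from the lowest to the highest cow, *CYBB* 2.81-fold and *CAT* 1.26-fold. *CYBA*, *NCF4* and *RAC2* spanned 1.86-, 1.72- and 1.498-fold.

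*CYBA*, *NCF1*, *NCF4* and *RAC2* were positively correlated across cows, while no pair with *CYBB* or *CAT* passed the test. In log2 CPM after TMM normalization, 6 of the 15 pairs of the 6 genes had a Pearson correlation with a permutation p below 0.05 after adjustment over the 15, and these were all 6 pairs among the 4 genes. Of all pairs of genes tested, 6.39% had an r as high as the lowest of the 6. The highest was that of *CYBA* and *RAC2*, with r = 0.81 and rho = 0.77 (adjusted permutation p = 0.0123 for r and 0.0334 for rho). Next came *CYBA* with *NCF1* (r = 0.71, rho = 0.75), *CYBA* with *NCF4* (r = 0.71, rho = 0.63) and *NCF4* with *RAC2* (r = 0.69, rho = 0.57), with an adjusted permutation p of 0.0328 for each r. *NCF1* had r = 0.66 with *RAC2* (rho = 0.49) and r = 0.65 with *NCF4* (rho = 0.47), with an adjusted permutation p of 0.0409 for each r. Without the 2 cows farthest from the median of the first gene, r of the 6 pairs was 0.47 to 0.85, lowest for *NCF4* with *RAC2* and highest for *CYBA* with *NCF1*. By rank, 2 of 15 pairs passed, *CYBA* with *NCF1* and *CYBA* with *RAC2*.

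These 6 correlations rested in part on single libraries and on the normalization. Without high replicate 4, the lowest cow for all 4 genes, 0 of 15 pairs passed, and r fell to 0.74 for *CYBA* and *RAC2* (adjusted permutation p = 0.0850) and to 0.47 to 0.61 for the other 5 pairs. Without high replicate 2, and likewise without low replicate 8, 1 of 15 passed. Without the TMM factor, on CPM scaled by the total alone, 0 of 15 passed and r of the 6 pairs was 0.35 to 0.62. The log2 TMM factor had r = -0.90 with log2 CPM of *NCF4*, -0.87 with *CYBA*, -0.82 with *RAC2* and -0.79 with *NCF1*. Normalized CPM is divided by that factor, so a part of these r is built in. With CPM scaled by the total alone they were -0.79, -0.77, -0.58 and -0.73. Within groups, r of the 6 pairs was 0.63 to 0.93 over the 7 high cows and 0.22 to 0.84 over the 6 low cows. The pair of *NCF1* and *RAC2* was at 0.85 in the high and 0.22 in the low group, and *CYBA* and *RAC2* at 0.93 and 0.48.

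A ratio of genes within a library does not depend on its scaling factor, so the SD of the log2 ratio over cows is given as well. It is small for 2 genes that each vary little, whatever their correlation. The ratios of *CYBA* to *RAC2* and *NCF4* to *RAC2* each had an SD of 0.16 on the log2 scale. Between 7.26% and 7.54% of the pairs of genes at least as abundant as *CAT* were as tight or tighter, with a median SD of 0.30 over such pairs. *CYBA* to *NCF4* had an SD of 0.19. Without high replicate 4 these 3 SDs were 0.16 to 0.20. The ratios of *RAC2* and *NCF4* to the steady *CAT*, with which neither passed the correlation test, had SDs of 0.21 and 0.25, or 0.15 and 0.17 without high replicate 4. *NCF1* was looser, with an SD of 0.40 to *CYBA*, 0.44 to *NCF4* and 0.44 to *RAC2*, even though its r with them was high.

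**Figure D4:**
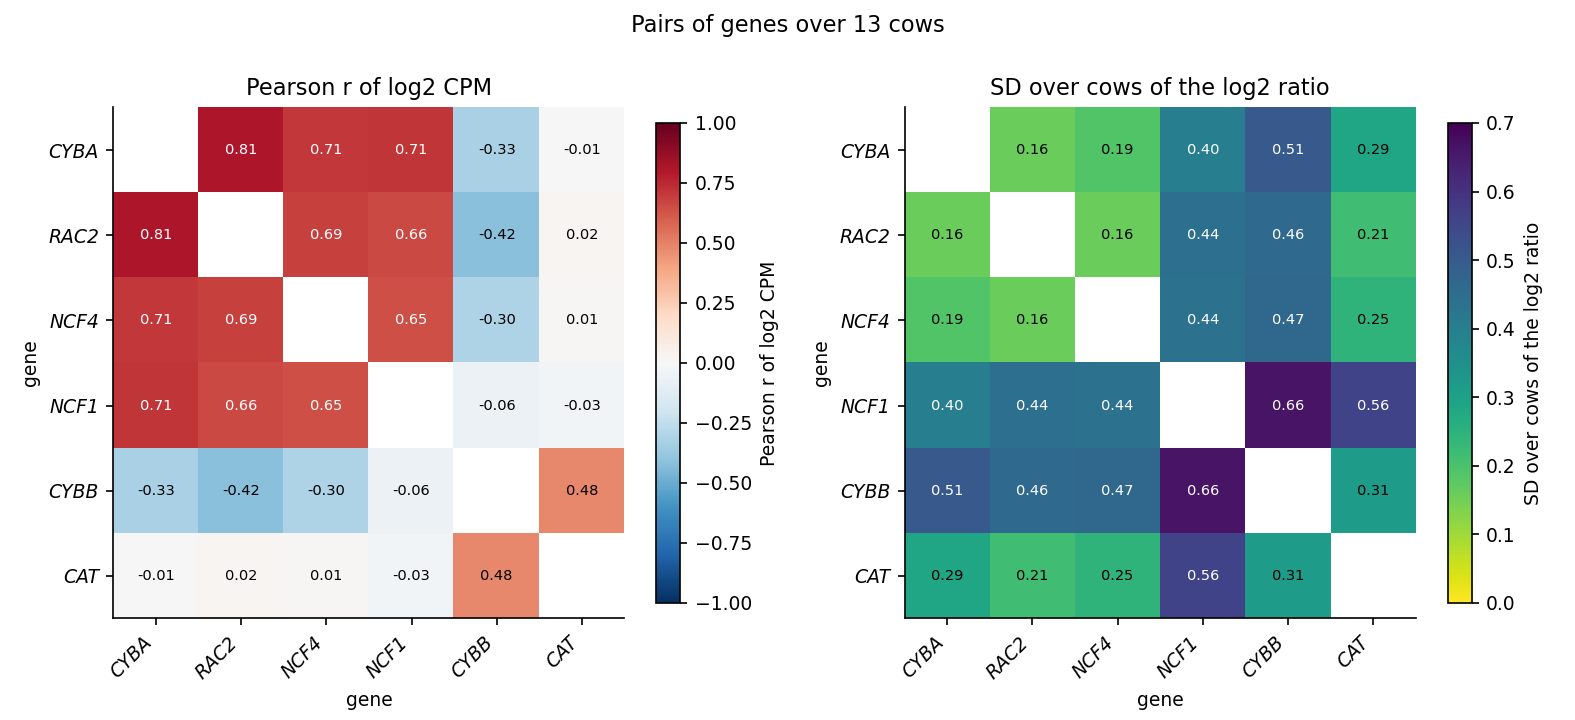
Pearson r of log2 CPM (left) and SD of the log2 ratio (right) for each pair of the 6 genes over 13 cows. *CYBA*, *RAC2*, *NCF4* and *NCF1* correlate at 0.65 to 0.81, while *CYBB* has negative r with them and SDs of 0.46 to 0.66.

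*CYBB* and *CYBA*, whose products form 1 heterodimer, were not positively correlated. Their log2 CPM had r = -0.33 (rho = -0.34, adjusted permutation p = 0.462), and r was -0.06 without high replicate 4. *CYBB* also had r of -0.06 with *NCF1*, -0.30 with *NCF4* and -0.42 with *RAC2*, none past the test. After leaving out high replicate 4 these were 0.40, 0.09 and -0.13. The closest of the 6 genes to *CYBB* was *CAT*, at r = 0.48 (rho = 0.43, adjusted permutation p = 0.198). This r was 0.29 without high replicate 4, below that of *NCF1*, and 0.07 with the difference between short and long gene models regressed out. The SD of the log2 ratio of *CYBB* to *CYBA* was 0.51, or 0.39 without high replicate 4, and 86.3% of the pairs of genes at least as abundant as *CAT* had a tighter ratio. For *CYBB* to *NCF1* the SD was 0.66, or 0.45 without high replicate 4, and 94.7% of such pairs were tighter.

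The ratio of *CYBB* to *CYBA* counts was highest in high replicate 4 and lowest in low replicate 13, a 3.88-fold span. On the log2 scale it was -0.86 ± 0.60 (SD, n = 7) in the high and -0.94 ± 0.42 (SD, n = 6) in the low group, with an exact permutation p of 0.788. *NCF1* to *NCF4* spanned 2.69-fold and differed by -0.19 between groups (high minus low, log2, exact permutation p = 0.452). This difference was -0.06 without low replicate 10 and -0.31 without high replicate 3, the farthest values with single cows left out. *CYBB* to *NCF1* spanned 5.25-fold, from high replicate 2 to high replicate 4, and differed by 0.39 (exact permutation p = 0.365). High replicate 4 was at 1.10 on the log2 scale and the other 12 cows at -1.29 to -0.11. Without it the difference was 0.14, and leaving out single cows in turn gave 0.14 to 0.53. Thus 0 of 3 subunit ratios differed between the groups at p below 0.05, and the smallest p that this test can give is 5.8e-04. The adjusted p over the 3 was 0.678 or more.

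*CYBB* and *CYBA* went opposite ways with the length index of the libraries, the mean log2 CPM of 3682 genes with models of at most 1584 bases minus that of 3683 genes of at least 2583 bases. The model of *CYBB* has 3139 bases, and r with the index was -0.76 (rho = -0.90, adjusted permutation p = 0.0069 over 18 relations). For *CYBA*, with 715 bases, r was 0.62 (adjusted permutation p = 0.0456), with rho = 0.51 (unadjusted permutation p = 0.0782). Among the r of all genes tested with the index, that of *CYBB* lay at percentile 5.03 and that of *CYBA* at percentile 85.4. Without the 2 cows farthest from the median of the index, r was -0.60 for *CYBB* and 0.25 for *CYBA*. For *CAT*, with 2262 bases, r was -0.59 (adjusted permutation p = 0.0548), and *NCF1*, *NCF4* and *RAC2* had r of 0.19, 0.38 and 0.44, which did not pass. When the index was regressed out of each gene, r of *CYBB* and *CYBA* was 0.27 instead of -0.33, and 2 of 15 pairs passed. This adjustment was chosen after seeing the data, and the part of the index in the values was not tested further. The 18 relations included the first principal component, on which high replicate 4 stood apart. With it r was 0.74 for *CYBB*, -0.78 for *CYBA*, -0.74 for *NCF4* and -0.70 for *RAC2*. Adjusted permutation p was 0.0152, 0.0048, 0.0107 and 0.0107, at percentiles 83.8, 9.71, 12.8 and 14.8 of all genes tested. Without the 2 cows farthest from the component's median these r were 0.27, -0.84, -0.51 and -0.45. *NCF1*, at -0.55, and *CAT*, at 0.37, did not pass.

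**Figure D5:**
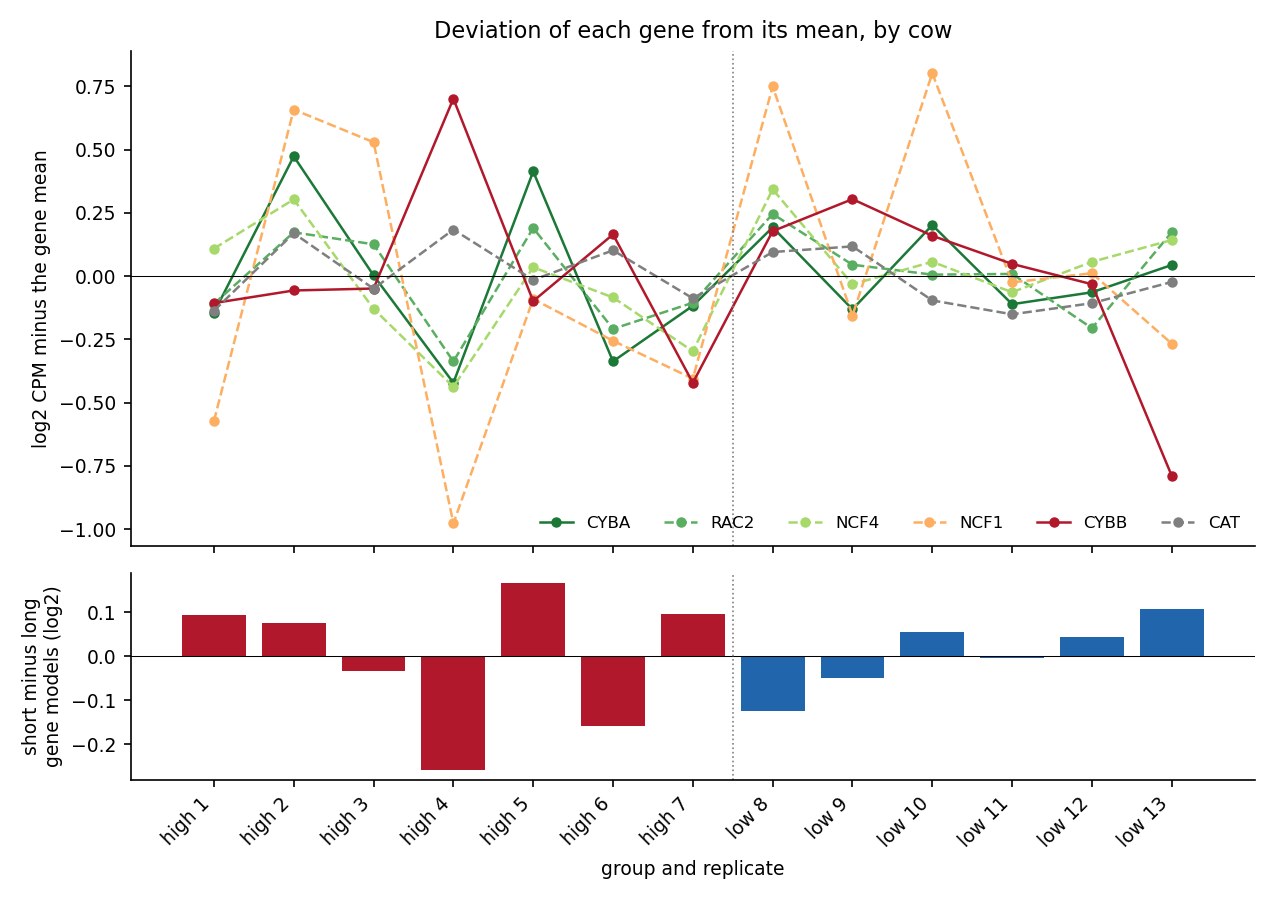
Log2 CPM of each gene minus its mean over the 13 cows (above), and the difference between short and long gene models in the same libraries (below, red for the high and blue for the low group). In high replicate 4 *CYBB* is above its mean while *CYBA*, *RAC2*, *NCF4* and *NCF1* are below theirs, and the length difference is the lowest, at -0.26.

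No relation of the 6 genes with the markers of phagocytes passed the test. With a score of 6 neutrophil markers, r was 0.45 for *CYBB*, 0.31 for *NCF1*, 0.25 for *CAT*, 0.16 for *NCF4*, -0.14 for *CYBA* and -0.18 for *RAC2*. With the monocyte score, *CYBB* had r = 0.55 (rho = 0.60, adjusted permutation p = 0.521 for r and 0.307 for rho). *NCF4*, *NCF1*, *RAC2* and *CYBA* had r of 0.37, 0.33, 0.19 and 0.18 with it. Without the 2 cows farthest from the median monocyte score, r was 0.69 for *CYBB* and -0.27, 0.0073, -0.12 and -0.40 for these genes. Of 72 relations of the 6 genes with 12 scores, 0 passed an adjusted permutation p of 0.05 by Pearson or by Spearman. The largest r was that of *NCF1* with the NF-kappaB and inflammatory response score, at 0.71 (rho = 0.65, adjusted permutation p = 0.262), and *CYBA* had 0.67 with this score (rho = 0.64, adjusted permutation p = 0.283). Without the 2 cows farthest from the median score these were 0.48 and 0.49. Without high replicate 4 the r of *NCF1* was 0.86, with an adjusted permutation p of 0.0331, and it was then the 1 relation of 72 that passed. *CAT* had r = 0.67 with the monocyte score (rho = 0.60, adjusted permutation p = 0.262), and this was 0.71 without the 2 cows farthest from the median score. *NCF4* had r = -0.65 with the log2 share of haemoglobin counts (rho = -0.79, adjusted permutation p = 0.283 for r and 0.162 for rho) and 0.61 with the interferon response score (rho = 0.70).

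The haemoglobin share was higher in the high group by 2.05 on the log2 scale (exact permutation p = 0.0175, adjusted over the 12 scores 0.105). The 4 haemoglobin genes found summed to 277 to 7695 CPM in the high and 119 to 536 CPM in the low group. With this share as a covariate, the log2 fold changes of *NCF4* and *CYBA* were 0.04 and 0.06, both positive instead of negative, and 0 of 6 genes passed. The difference in the neutrophil score was -0.31 (high minus low, exact permutation p = 0.166). The 7 neutrophil markers found of 9 summed to 3982 to 8262 CPM in the high and 6228 to 8706 CPM in the low group, and none was at 0 in all cows.

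Among the other 11027 genes tested, those with the most similar profile over the 13 cows reached r of 0.87 to 0.97. They were *VPS4B* and *KAT2B* for *CYBB* (r = 0.94 for both) and *FEM1A* and *DGCR14* for *CYBA* (0.97 and 0.95). For *NCF1* they were *PBXIP1* and *MFAP1* (0.94 for both), for *NCF4* *MVP* and *CAPNS1* (0.94 for both), and for *RAC2* *SIPA1* and *CTDSP1* (0.94 and 0.93). *CAT* had the least similar neighbours, *DAB2* and *PDCD6IP* (0.87 for both). None of these 12 genes was a subunit of the oxidase or in the lists of partners and antioxidant genes. They were picked as the highest of many correlations, so their r carries no test.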

How the data were processed

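Whole blood RNA of 13 cows was sequenced and each cow was taken as 1 replicate of the group its label gives. The authors deposited counts, the whole number of reads per gene name, without normalization. Per the file headers they came from featureCounts 1.4.6-p3 with Ensembl 88 gene models of UMD3.1, exons summed by gene name, without options for strand, read pairs or multiple mapping. The headers also name a folder with goat in its name and other animal numbers, while the labels give STAR 2.7.3, Subread 1.6.5 and ARS-UCD1.2. Positions are those of the headers' build. The unnamed entry, 13.9% to 16.7% of counts, was left out.

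Genes passing filterByExpr (minimum count 10, minimum total 15) were tested with edgeR 4.0.16 (R 4.3.3; TMM, robust quasi-likelihood, Benjamini-Hochberg adjustment). Log2 CPM used a prior count of 2, TPM the summed exon length over named genes. Standard errors come from the F statistic. Correlations have permutation p from 100000 resamples, with a smallest value of 1e-05. Depths of 11045599 to 28124575 counts put 3 counts at 0.107 to 0.272 CPM. Scripts were tested on simulated data.

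Scores are means of centred log2 CPM over marker lists. *SOD2* to *SOD1* and *CAT* to *GPX1* ratios, and 1 partner gene with its ratio, are not reported here. Alternatives were DESeq2 1.42.0, limma-voom (limma 3.58.1), other size factors and filters, covariates and each cow left out. The members, the lists and the tests were chosen with earlier results of these data known. Named genes were the members, *NOX4*, *GPX4*, *PRDX2*, *NFE2L2*, list genes with an unadjusted p below 0.05 and the 2 most correlated genes of each member, and *MPO*, *SOD3*, *CCS* and *GCLC* were added after their values were seen.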

Additional observations from a re-analysis of the deposited data

Results flagged for a closer look

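In the low group, *CYBB* was at a log2 CPM of 8.08 in replicate 13, while the other 5 cows lay between 8.84 and 9.18. That cow was the lowest of all 13 for *CYBB*, and its gap to the next cow was 0.692 of the range of the group. In the high group, the interferon response score of replicate 5 was 1.28, while the other 6 cows lay between -1.005 and -0.25. Both stand out by Dixon's criterion at the 95% level, which flags about 1 in 20 groups by chance, and 84 comparisons over 21 measures gave these 2.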

How the results depend on the processing

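In every alternative run, 0 of the 6 genes had an adjusted p below 0.05 between high and low cortisol, and so had 0 of the 3 ratios an exact permutation p below 0.05. Over all genes, DESeq2, run without the filter on low counts, called 1 gene, *CYP4X1*, named after its value was seen. Its log2 fold change there was 21.3 (DESeq2 adjusted p 2.3e-08), a size not checked against its counts. EdgeR, with and without the filter, and limma-voom called 0. The 231 genes at an unadjusted p below 0.05 in edgeR, of 11033 tested, became 414 without the filter and 348 with DESeq2. Both of these runs took in more genes, so their counts cannot be compared directly with the 231. With the haemoglobin share and the neutrophil score as covariates the number was 120 and 431. It was 373 without high replicate 2, 363 without high replicate 5, and 191 to 373 over all cows left out in turn. The small log2 fold changes of *CYBA* and *NCF4* changed sign with the haemoglobin covariate (0.0599 and 0.0366), and that of *CYBA* with upper-quartile factors (0.0023). That of *NCF1* was -0.18 with the haemoglobin and -0.20 with the neutrophil covariate, and that of *CYBB* 0.18 with the latter. Leaving out single cows gave -0.10 to 0.11 for *CYBB* and -0.10 to 0.0496 for *CYBA*. The difference in log2 *CYBB* to *CYBA* was -0.0603 by medians and -0.10 to 0.18 with cows left out, negative without high replicate 4 (-0.10) and without low replicate 13 (-0.08).

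The number of correlated pairs depended most on the processing. The 6 of 15 became 2 by Spearman, 0 without the TMM factor, 3 centred on group means, 2 with the length index regressed out, and 0 to 6 with cows left out (0 without high replicate 4, 1 without high replicate 2 or low replicate 8). The median r of 0.02 became -0.15 without the TMM factor and -0.0611 to 0.40 with cows left out. By Spearman, *CYBB* with *NCF1* was 0.18 and *NCF4* with *CAT* -0.0604. Without the TMM factor, *CAT* had r of -0.43 with *NCF4* and with *CYBA*, -0.42 with *NCF1*, -0.30 with *RAC2* and 0.64 with *CYBB* (adjusted permutation p = 0.162). Centred on group means, *CAT* had 0.0133 with *CYBA* and 0.0514 with *NCF1*, and with the index regressed out 0.56 and 0.11, with *CYBB* at 0.27 with *CYBA* and 0.14 with *NCF1*. With cows left out, *CYBB* ran from -0.21 to 0.40 with *NCF1* and from -0.53 to 0.0922 with *NCF4*, and *CAT* from -0.31 to 0.28 with *CYBA*, -0.22 to 0.30 with *NCF1*, -0.21 to 0.42 with *NCF4* and -0.12 to 0.38 with *RAC2*. Score relations called were 0 to 1 with cows left out. The cause of these changes was not tested. No paired analysis was made, because the groups are different cows from the high and the low tail of milk cortisol. The 7 and 6 cows, the build of the headers and the absence of cell counts limit what these values can show.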
